A study of Mus musculus with 6 samples.

Results

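Mitosis is run by a compact set of motors, scaffolds and kinases, and 37 genes of that machinery are described here in the mesenteric arteries of mice that lacked or kept beta1 integrin in smooth muscle. The 37 genes are 12 kinesin motors of the spindle and midzone, 6 cytokinesis genes, 10 genes for spindle assembly and microtubule binding, 4 mitotic kinases and 5 centriole and centrosome genes. The 37 were chosen with earlier results of these data known. They were taken by name, as every probe set whose only gene symbol in the array's annotation was one of the 37. That gave 86 of the 45037 probe sets on the array and 37 of its 18193 named genes, with no filter on signal. Of the 37 genes, 25 had several probe sets, at most 5, and 12 had 1.

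Kinesins are motors that walk along microtubules or take them apart. In mitosis they push the spindle poles apart, move chromosomes and, once the chromosomes have separated, build the bundle of overlapping microtubules called the midzone. The midzone then places a ring of actin and myosin that pinches the cell apart, and the last bridge is cut at the midbody. Centrioles are copied once per cycle by a separate group of proteins and organise the spindle poles. Most cells of an adult artery wall are at rest, and many of these genes are transcribed mainly in cells that pass through G2 and mitosis.

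The study put mesenteric artery RNA of 6 mice on arrays, 1 per mouse, after biotin labelling. All 6 carried loxP-flanked beta1 integrin (Itgb1) on a mixed background that includes FVB, SVJ129 and C57BL/6, and all 6 received 14 doses of 1 mg tamoxifen at intervals of 24 h from 5 weeks of age and were studied at 7 weeks. The 3 control mice (animal numbers 30, 74 and 75) were Cre negative, and the 3 knockout mice (72, 73 and 86) also carried sm22alphaCRE, a recombinase driven by the promoter of the smooth muscle gene Tagln. The presence of Cre and the loss of the integrin therefore cannot be told apart here. Adipose and lymph tissue was reported as cleared from the vessels, and readings of adipocyte and lymphocyte markers are given below. In the label of knockout 86 the animal number is followed by F, and in the labels of the other 5 mice by M.

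The values are log2(intensity + 1) after quantile normalization, and a difference is knockout minus control on that scale, which understates changes of dim probe sets. Values are listed in the order 30, 74, 75 for controls and 72, 73, 86 for knockouts. A difference passed the threshold where its adjusted p, from limma over all 45037 probe sets with Benjamini-Hochberg correction, was under 0.05. Where a gene has several probe sets, the representative one is that with the highest mean over the 6 arrays, and it is meant unless another is named, and a fold is the antilog of the difference. The table holds no detection calls, so whether dim control readings were above background is not known, and folds and the order of differences against them are approximate. No fold is given where the control mean was under 4 on the log2 scale. The median deposited intensity per array was 62.8 to 72.6, Pearson correlations between arrays across probe sets, which are not independent replicates, were 0.945 to 0.978, and no value of a member (0 of 86 probe sets) lay at the lowest intensity of 1. The array median was about 6.10 on the log2 scale, and 23 of the 37 members had a control mean below it. The animals are separate samples by number, and nothing more is stated on litters or days.

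The targeted gene was checked first. Itgb1, at its representative probe set, read 11.80, 11.04 and 11.20 in the controls and 10.51, 10.56 and 10.76 in the knockouts. The groups did not overlap, and the knockout level was 60.1% of the control level (difference -0.73, SE 0.24). In limma this had an adjusted p of 0.323, and a 2-sided exact permutation test gave p = 0.1, the smallest possible with 3 arrays against 3. Of the 5 other Itgb1 probe sets, 4 lay between 56.9% and 61.6% of control and 1 at 103%. Whole vessels also hold cells in which the SM22alpha promoter is not active, and the share of each cell type was not measured.

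The promoters of these genes are shown first because they share short sequence elements beyond the names that chose them. The CCAAT box is bound by the factor NF-Y, and TTTGAA is the cell cycle genes homology region (CHR), bound by MuvB complexes that hold such genes silent in resting cells and, with B-Myb and FoxM1, raise them in G2 and mitosis. RefSeq promoter windows of GRCm38.p6, from 250 bases before to 50 bases after a transcript start, were at hand for 31 of the 37 members, as 34 windows. Cep55, Ect2 and Prc1 had a pair of overlapping windows each, and Cep192, Tubg1, Kif20a, Pbk, Stmn1 and Tpx2 had none. Both motifs were searched on both strands. The windows below, each 300 bases, belong to the member with the largest difference in each role for which a window was at hand, and to Ckap5, a member with almost no difference that was chosen after its values were seen. Capitals mark CCAAT (or ATTGG, its opposite strand) and TTTGAA (or TTCAAA), and each window is printed 5′ to 3′ on the strand of its gene.

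Kif23, chr9:61946750-61947049, minus strand: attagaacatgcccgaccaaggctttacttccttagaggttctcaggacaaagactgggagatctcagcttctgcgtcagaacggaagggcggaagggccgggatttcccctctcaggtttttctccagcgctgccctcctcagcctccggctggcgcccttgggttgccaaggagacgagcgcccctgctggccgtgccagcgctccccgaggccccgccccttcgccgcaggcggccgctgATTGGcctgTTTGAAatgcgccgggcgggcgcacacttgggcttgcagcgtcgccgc
Cep55, chr19:38054734-38055033, plus strand: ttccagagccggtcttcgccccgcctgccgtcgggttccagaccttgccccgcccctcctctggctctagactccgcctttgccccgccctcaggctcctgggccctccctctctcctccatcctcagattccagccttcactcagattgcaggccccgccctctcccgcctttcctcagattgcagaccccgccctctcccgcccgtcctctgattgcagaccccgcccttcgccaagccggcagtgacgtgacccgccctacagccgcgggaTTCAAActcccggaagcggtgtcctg
Spag5, chr11:78301341-78301640, plus strand: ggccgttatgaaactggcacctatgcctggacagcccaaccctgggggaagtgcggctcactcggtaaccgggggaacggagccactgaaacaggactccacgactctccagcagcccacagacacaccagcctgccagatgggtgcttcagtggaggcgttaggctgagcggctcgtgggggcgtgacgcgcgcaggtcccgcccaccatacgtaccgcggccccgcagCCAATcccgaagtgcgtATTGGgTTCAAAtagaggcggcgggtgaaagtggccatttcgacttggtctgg
Aurka, chr2:172370521-172370820, minus strand: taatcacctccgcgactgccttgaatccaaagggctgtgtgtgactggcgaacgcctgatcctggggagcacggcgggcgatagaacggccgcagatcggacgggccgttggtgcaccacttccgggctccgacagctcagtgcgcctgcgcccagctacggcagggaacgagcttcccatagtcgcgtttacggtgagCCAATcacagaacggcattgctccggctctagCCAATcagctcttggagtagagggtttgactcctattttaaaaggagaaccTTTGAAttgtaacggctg
Stil, chr4:114999868-115000167, plus strand: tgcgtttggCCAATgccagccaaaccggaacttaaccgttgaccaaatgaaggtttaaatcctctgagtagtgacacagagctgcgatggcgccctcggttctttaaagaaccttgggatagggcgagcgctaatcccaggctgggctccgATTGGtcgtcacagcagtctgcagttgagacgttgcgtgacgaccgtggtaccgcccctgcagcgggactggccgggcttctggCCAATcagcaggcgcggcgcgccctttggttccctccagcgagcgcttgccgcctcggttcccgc
Ckap5, chr2:91526512-91526811, plus strand: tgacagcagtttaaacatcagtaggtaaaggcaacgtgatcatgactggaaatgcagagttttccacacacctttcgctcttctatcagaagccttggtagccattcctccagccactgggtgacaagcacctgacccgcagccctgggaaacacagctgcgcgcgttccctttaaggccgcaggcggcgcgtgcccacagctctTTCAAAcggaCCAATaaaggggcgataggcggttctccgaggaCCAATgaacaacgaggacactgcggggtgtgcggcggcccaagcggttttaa

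In Kif23 a CCAAT box on the opposite strand ended 3 bases before the start and the CHR began at base 3 of the transcript. Spag5 had CCAAT boxes at -20 and -3 and the CHR at base 4, so its 3 elements lay within a stretch around the start. Aurka had CCAAT boxes at -51 and -19 and the CHR at base 33. Cep55 had the CHR at base 25 and no CCAAT box, and Stil had 3 CCAAT boxes, the nearest at -15, and no CHR. Ckap5 had the CHR at -45 and CCAAT boxes at -35 and -2. A match of letters is a description and not evidence that a factor binds.

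Across the members, TTTGAA stood in 27 of 34 windows (79.4%), against 5878 of all 32851 windows of that length (17.9%). CCAAT stood in 22 of 34 (64.7%), against 37.4% of all windows, and both stood in 20 of 34 (58.8%), against 6.95%. Within 50 bases of the start, TTTGAA stood in 23 of 34 windows (67.6%), against 4.94% of all windows. At least 2 CCAAT boxes were present in 13 of the 31 genes. Neither motif was found for 5 genes, Kif18a, Cit, Nusap1, Tacc3 and Plk4. Members on both sides of the expression threshold held them: TTTGAA was in 12 of the 14 genes past it and 12 of the 17 others, and CCAAT in 10 of 14 and 10 of 17.

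**Figure D1:**
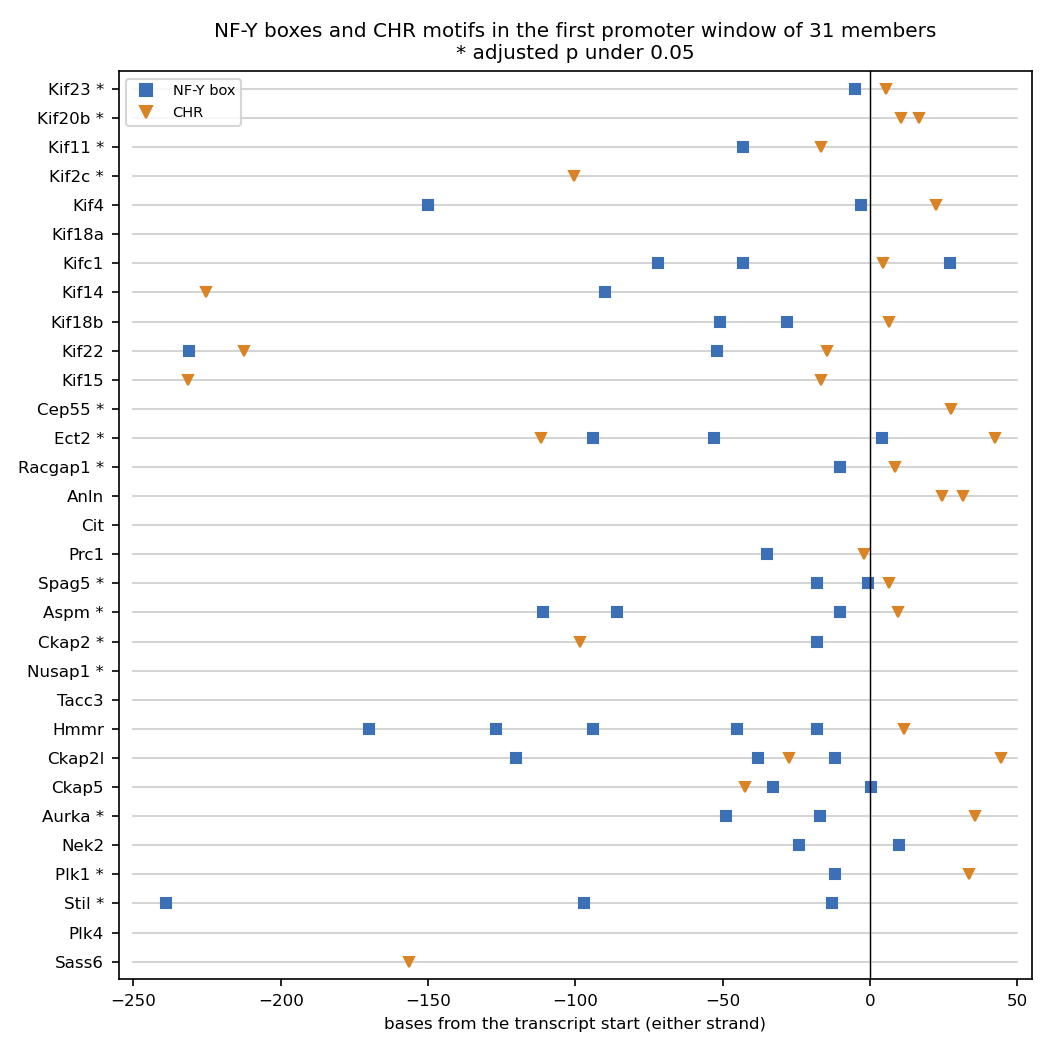
Positions of CCAAT boxes (blue squares, labelled NF-Y box) and TTTGAA motifs (orange triangles, CHR) in the first RefSeq window of each of 31 members, in bases from the transcript start on either strand, with members past the expression threshold starred. The triangles gather near the start, and 5 genes have neither motif.

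Many of these genes read higher in knockout than in control arteries. They were chosen with earlier results of these data known, so the counts below describe them and do not test the list. At their representative probe sets, 16 of the 37 genes rose in knockout arteries past the threshold and 0 fell, where 0.5% of all 18193 genes rose (91) and 0.033% fell (6). In size, 34 of the 37 differences were above 0, and 25 genes were at least 2-fold higher, against 3.74% of all genes. The median difference was 1.75, with a range of -0.05 to 4.80, and the median over all genes was -0.07. In 29 of the 37 genes every knockout array lay above every control array, against 10.4% of all genes, and in the other 8 the groups overlapped. The same number, 29 genes, had an unadjusted p under 0.05, against 13.7% of all genes in either direction. The 3 differences below 0 (Kif15, Tpx2 and Ckap5) were at most 0.05 in size and turned above 0 without normalization. The representative probe set is chosen by a mean that includes the knockout arrays, so knockout values help choose it. By the probe set with the highest control mean instead, 14 of the 37 passed, against 0.456% of all genes. Under that rule Kif23 stood at -0.64 and Kif11 at -0.08. In whole arteries, a different number of dividing cells and a different amount of RNA per cell cannot be told apart.

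The 16 genes that rose were Kif11, Kif20a, Kif20b, Kif23, Kif2c, Racgap1, Ect2, Cep55, Nusap1, Aspm, Ckap2, Spag5, Plk1, Aurka, Pbk and Stil. All 16 had a control mean below the array median, and no member with a higher control mean passed at its representative probe set. Their calls and folds therefore rest on dim control readings. With 3 arrays a group, these calls were sensitive to the loss of an array. Without control 30, 74 or 75 or knockout 72, 0 of the 37 members and 0 of all 18193 genes passed in limma. In each of these omissions 29 members had an unadjusted p under 0.05 in limma. Of all 18193 genes, 2484, 2465, 1911 and 1845 did so, in the same order and in either direction. Without knockout 73 the count was 9 (0.159% of all genes), and without knockout 86 it was 6 (0.143%). Every single call given below was lost in each of the first 4 of these omissions. With a trended robust variance prior, chosen after seeing the data, 21 members passed on all 6 arrays, against 1.48% of all genes. With that prior and 1 array left out, 23, 21 and 16 members passed without control 30, 74 and 75 (1.59%, 1.54% and 0.61% of all genes). Without knockout 72, 73 and 86 they were 16, 19 and 17 (0.434%, 0.83% and 0.55%). The median difference over the members stayed at 1.62 to 1.88 whichever array was left out.

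**Figure D2:**
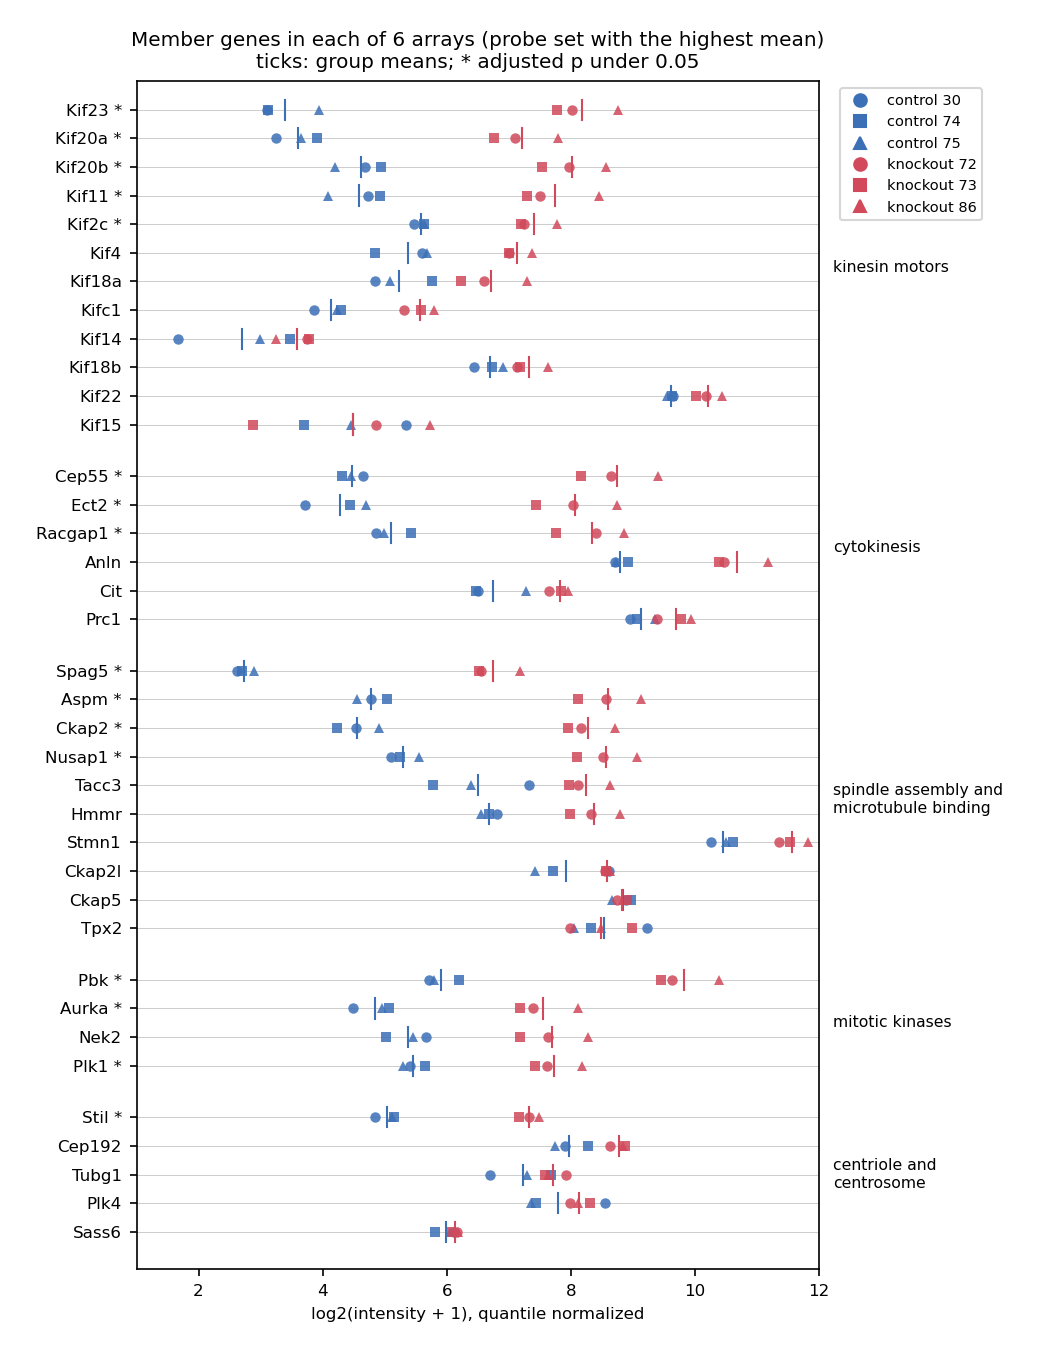
Level of each of the 37 members in each of the 6 arrays, as log2(intensity + 1) at the probe set with the highest mean, grouped by role, with ticks at group means and stars at genes past the threshold. In 29 genes all 3 red knockout symbols lie to the right of all 3 blue control symbols, and knockout 86 (triangle) is most often the rightmost.

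Among the 12 kinesin motors, 5 rose past the threshold, Kif23, Kif20a, Kif20b, Kif11 and Kif2c, with a median difference of 1.62 over all 12. Kif23 (MKLP1), which with Racgap1 forms the centralspindlin complex that bundles the midzone, read 3.11, 3.12 and 3.94 in the controls and 8.01, 7.78 and 8.76 in the knockouts. Every knockout array stood clearly above every control, a difference of 4.80 (SE 0.35, adjusted p 0.0147). Its other 2 probe sets had differences of 1.95 (adjusted p 0.276) and -0.64 (adjusted p 0.614). Kif20a (MKLP2), the motor that carries the chromosomal passenger complex to the midzone, read 3.26, 3.91 and 3.66 in the controls and 7.10, 6.77 and 7.79 in the knockouts at its only probe set. The groups were again apart, by 3.61 (SE 0.32, adjusted p 0.0178).

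Kif20b, a related motor that acts late in cytokinesis, read 4.69, 4.95 and 4.20 in the controls and 7.97, 7.54 and 8.57 in the knockouts, with no overlap and a difference of 3.41 (SE 0.33, adjusted p 0.022). Its other 3 probe sets had differences of 1.00 to 2.55, none of them past the threshold. Kif11 (Eg5), which slides antiparallel microtubules apart to make the spindle bipolar, read 4.74, 4.92 and 4.09 in the controls and 7.51, 7.29 and 8.45 in the knockouts. The groups did not overlap, with a difference of 3.17 (SE 0.38, 8.98-fold, adjusted p 0.0394), while its other probe sets gave 1.94 and -0.08. Kif2c (MCAK), which takes microtubules apart at centromeres, read 5.48, 5.63 and 5.63 in the controls and 7.25, 7.21 and 7.77 in the knockouts at a probe set whose identifier marks possible cross-hybridisation. That difference was 1.83 (SE 0.21, adjusted p 0.0366), and its other 3 probe sets lay between -0.30 and 0.78.

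The other 7 kinesins did not pass at their representative probe set. Kif22 (Kid), a chromokinesin that pushes chromosome arms away from the poles, read 9.64, 9.64 and 9.56 in the controls and 10.17, 10.01 and 10.44 in the knockouts there, a difference of 0.59 (adjusted p 0.283) with no overlap. Another Kif22 probe set read 3.42, 3.58 and 3.10 in the controls and 6.90, 6.72 and 7.25 in the knockouts, and that one rose by 3.59 (SE 0.22, adjusted p 0.0121). These 2 probe sets of Kif22 thus fell on opposite sides of the threshold. The identifier of the first marks possible cross-hybridisation and that of the second shared transcripts. The third Kif22 probe set, without such a mark, differed by 2.18 with no overlap (adjusted p 0.0987). Kif15, a motor that can stand in for Kif11 in keeping the spindle bipolar, read 5.34, 3.70 and 4.46 in the controls and 4.87, 2.88 and 5.72 in the knockouts. Its groups overlapped fully, with a difference of -0.008 and a 95% interval of -1.91 to 1.90, which leaves its direction and size unresolved.

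Kif4, a chromokinesin that also works with Prc1 at the midzone, differed by 1.75 (adjusted p 0.0854), and Kifc1, a motor that walks to the minus end and gathers the poles, by 1.44 (adjusted p 0.0723), both with no overlap. Kif18a, which damps the swings of chromosomes at the metaphase plate, differed by 1.48 (adjusted p 0.212) and Kif18b, which trims astral microtubules, by 0.62 (adjusted p 0.339). Kif14, which binds citron kinase at the midbody, differed by 0.89 with overlapping groups (adjusted p 0.492).

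All 6 cytokinesis genes were higher in every knockout array than in any control array, and 3 of them, Cep55, Ect2 and Racgap1, passed the threshold, with a median difference of 2.57 over the 6. Cep55, the midbody protein that recruits the membrane-cutting ESCRT machinery, read 4.65, 4.31 and 4.46 in the controls and 8.65, 8.17 and 9.40 in the knockouts. It rose by 4.27 (SE 0.33, 19.3-fold, adjusted p 0.0147), with its other probe set at 1.42 (adjusted p 0.149). Ect2, the exchange factor that activates RhoA under the midzone, read 3.71, 4.45 and 4.69 in the controls and 8.03, 7.44 and 8.75 in the knockouts at its only probe set. It rose by 3.79 (SE 0.41, 13.8-fold, adjusted p 0.0318).

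Racgap1, the partner of Kif23 in centralspindlin and the recruiter of Ect2, read 4.86, 5.43 and 4.99 in the controls and 8.41, 7.77 and 8.86 in the knockouts at 1 probe set and 5.22, 5.63 and 5.42 in the controls and 7.56, 7.45 and 7.996 in the knockouts at another. Both passed, with differences of 3.25 (SE 0.32, adjusted p 0.0246) and 2.25 (SE 0.22, adjusted p 0.0221), and the third, marked for cross-hybridisation, stood at -0.64. Prc1, the crosslinker on which the midzone is built, read 8.96, 9.07 and 9.36 in the controls and 9.39, 9.77 and 9.94 in the knockouts at its representative probe set, a difference of 0.57 (SE 0.22, adjusted p 0.369). Its other probe set read 6.00, 6.07 and 6.01 in the controls and 9.29, 9.33 and 10.27 in the knockouts and rose by 3.61 (SE 0.30, 12.2-fold, adjusted p 0.0148). Anln (anillin), the scaffold of the contractile ring, differed by 1.90 (SE 0.25, 3.72-fold) and just missed the threshold at an adjusted p of 0.0535. Cit, citron kinase of the midbody, differed by 1.07 (adjusted p 0.219).

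Of the 10 genes for spindle assembly and microtubule binding, 4 rose, Spag5, Aspm, Ckap2 and Nusap1, and the median difference was 1.72. Spag5 (astrin), which holds kinetochores on microtubules, read 2.63, 2.70 and 2.89 in the controls and 6.56, 6.53 and 7.18 in the knockouts. The groups were far apart, and it rose by 4.02 (SE 0.23, adjusted p 0.0121). Its other 2 probe sets stood at 2.93 (adjusted p 0.0837) and 1.40 (adjusted p 0.352). Aspm, the spindle pole protein mutated in a form of microcephaly, read 4.79, 5.03 and 4.55 in the controls and 8.57, 8.11 and 9.13 in the knockouts. It rose by 3.82 (SE 0.30, 14.1-fold, adjusted p 0.0147), while its other 4 probe sets ranged from -0.08 to 3.04 and did not pass.

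Nusap1, which binds spindle microtubules near chromosomes, read 5.11, 5.25 and 5.55 in the controls and 8.52, 8.09 and 9.07 in the knockouts, with no overlap. It rose by 3.26 (SE 0.29, adjusted p 0.0178), with its other probe set at 0.22. Ckap2, a spindle microtubule binder, rose by 3.72 (SE 0.28, 13.2-fold, adjusted p 0.0147) at its only probe set. Its relative Ckap2l read 8.61, 7.72 and 7.42 in the controls and 8.56, 8.57 and 8.63 in the knockouts at the representative probe set, where the groups overlapped and the difference was 0.67 (adjusted p 0.454). A second Ckap2l probe set read 4.53, 4.25 and 5.11 in the controls and 8.26, 7.58 and 8.90 in the knockouts and rose by 3.62 (SE 0.39, 12.3-fold, adjusted p 0.0318).

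Tpx2, which activates aurora A and seeds microtubules around chromosomes, was another such case. Its representative probe set read 9.23, 8.33 and 8.06 in the controls and 7.99, 8.99 and 8.48 in the knockouts, with overlapping groups (difference -0.05, SE 0.39, adjusted p 0.966). Another read 4.75, 4.19 and 4.69 in the controls and 7.42, 6.88 and 8.01 in the knockouts and rose by 2.90 (SE 0.33, 7.44-fold, adjusted p 0.0366), and the last 2 stood at 0.05 and 0.44. The sources used here do not give the stretch of transcript that each probe set reads. Hmmr, a spindle protein that is also a hyaluronan receptor, read 6.81, 6.69 and 6.56 in the controls and 8.33, 7.99 and 8.79 in the knockouts at its representative probe set, with no overlap and a difference of 1.69 (SE 0.24, adjusted p 0.0669). Of its 4 other probe sets, 2 rose, by 3.35 (adjusted p 0.019) and 3.66 (adjusted p 0.0214), the first of them reading 4.09, 4.38 and 4.18 in the controls and 7.31, 7.17 and 8.21 in the knockouts.

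Tacc3, which acts with clathrin and Ckap5 to bridge spindle microtubules, read 7.33, 5.78 and 6.39 in the controls and 8.12, 7.98 and 8.63 in the knockouts, with control 30 far above the other controls and a difference of 1.75 (adjusted p 0.207). The identifier of that probe set marks possible cross-hybridisation. A second Tacc3 probe set read 4.27, 4.63 and 5.05 in the controls and 7.23, 7.11 and 7.55 in the knockouts and rose by 2.65 (SE 0.25, adjusted p 0.0214). The third differed by 0.89 with overlapping groups (adjusted p 0.383). Stmn1 (stathmin), which sequesters tubulin dimers, had high readings in all arrays and differed by 1.12 (SE 0.20, 2.17-fold, adjusted p 0.115) with no overlap. Ckap5 (chTOG), a microtubule polymerase that also serves cells outside mitosis, read 8.89, 8.97 and 8.66 in the controls and 8.74, 8.91 and 8.85 in the knockouts. Its arrays were interleaved, with a difference of -0.008 and a 95% interval of -0.41 to 0.39, and its other 2 probe sets stood at -0.16 and -0.27.

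The 4 mitotic kinases were higher in every knockout array than in every control array, by a median of 2.51, and 3 passed, Pbk, Aurka and Plk1. Pbk, a kinase active in mitotic cells, read 5.72, 6.20 and 5.79 in the controls and 9.63, 9.46 and 10.39 in the knockouts at its only probe set. It rose by 3.92 (SE 0.29, 15.2-fold, adjusted p 0.0147). Aurka (aurora A), the kinase of spindle poles that Tpx2 activates, read 4.50, 5.07 and 4.96 in the controls and 7.38, 7.18 and 8.11 in the knockouts. It rose by 2.72 (SE 0.30, 6.57-fold, adjusted p 0.0342), and a second probe set stood at -0.83 (adjusted p 0.639).

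Plk1, which drives mitotic entry, centrosome maturation and the recruitment of Ect2, read 5.41, 5.66 and 5.29 in the controls and 7.61, 7.42 and 8.17 in the knockouts. It had the smallest difference of the 4 kinases and still rose by 2.28 (SE 0.25, 4.86-fold, adjusted p 0.0318). Nek2, which releases the link between centrosomes, read 5.67, 5.02 and 5.46 in the controls and 7.63, 7.17 and 8.27 in the knockouts and missed the threshold at its representative probe set (2.31, SE 0.33, adjusted p 0.0669). A second probe set read 4.87, 4.83 and 5.16 in the controls and 6.68, 6.90 and 7.49 in the knockouts and passed (2.07, SE 0.26, adjusted p 0.0434), while the last 2 stood at -0.05 (adjusted p 0.96) and -0.53 (adjusted p 0.537).

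The 5 centriole and centrosome genes had the smallest median difference of the roles, 0.48, and 1 of them, Stil, passed. Whether this role differed from the others was not tested. Stil, which with Sass6 builds the cartwheel of a new centriole, read 4.84, 5.15 and 5.12 in the controls and 7.33, 7.16 and 7.48 in the knockouts. It rose by 2.29 (SE 0.18, 4.87-fold, adjusted p 0.0147). Cep192, which gathers the material around the centrioles, read 7.90, 8.28 and 7.75 in the controls and 8.63, 8.88 and 8.83 in the knockouts, with no overlap and a difference of 0.80 (SE 0.20, 1.74-fold, adjusted p 0.223). Sass6 itself read 6.12, 5.82 and 6.05 in the controls and 6.16, 6.05 and 6.18 in the knockouts, all 6 arrays within a narrow band. Its difference was 0.14 (SE 0.16), with a 95% interval of -0.26 to 0.53. Its other probe set differed by 1.02 with overlapping groups (adjusted p 0.398).

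Plk4, the kinase that starts centriole duplication, differed by 0.35 (adjusted p 0.709) with overlapping groups at its representative probe set. Its other 2 probe sets had no overlap and differences of 1.67 (adjusted p 0.0869) and 2.16 (adjusted p 0.149), short of the threshold. Tubg1, the gamma tubulin that nucleates microtubules at centrosomes, differed by 0.48 (adjusted p 0.526), with control 74 above knockouts 73 and 86.

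The choice of probe set mattered for several of these genes. Over all 86 member probe sets, 25 rose and 0 fell, where 0.366% of all 45037 probe sets rose, and 56 had no overlap with knockouts above controls, against 9.25% of all. The median difference over the 86 was 1.41. Each of the 25 had a control mean below the array median. Left out in turn, each control and knockout 72 brought the 25 to 0, knockout 73 to 11 and knockout 86 to 10. The matching shares of all probe sets are not given here. Counting a gene when any of its probe sets passed gave 23 of 37 members, against 0.698% of all genes. The 7 genes added in this way were Kif22, Prc1, Tpx2, Ckap2l, Hmmr, Tacc3 and Nek2. In 17 members some probe sets passed and others did not, in 6 the only probe set passed, and in 14 none did. No member with several probe sets had all of them pass. The 14 were Kif14, Kif15, Kif18a, Kif18b, Kif4, Kifc1, Anln, Cit, Ckap5, Stmn1, Plk4, Cep192, Sass6 and Tubg1. Identifiers that warn of cross-hybridisation or of shared transcripts covered 16 of the 86, of which 6 passed, and the other 19 calls came from probe sets without such a mark. The 6 were the passing probe sets of Kif2c, Kif22, Prc1, Spag5 and Pbk and the Hmmr probe set that rose by 3.35. Averaging all probe sets of a gene gave 17 members past the threshold, against 0.77% of all genes, of which 11 were among the 16. The 5 that then missed it were Kif20b (2.07, adjusted p 0.138), Kif23 (2.04, adjusted p 0.0967), Kif2c (0.60, adjusted p 0.291), Aspm (1.84, adjusted p 0.0948) and Aurka (0.94, adjusted p 0.333).

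**Figure D3:**
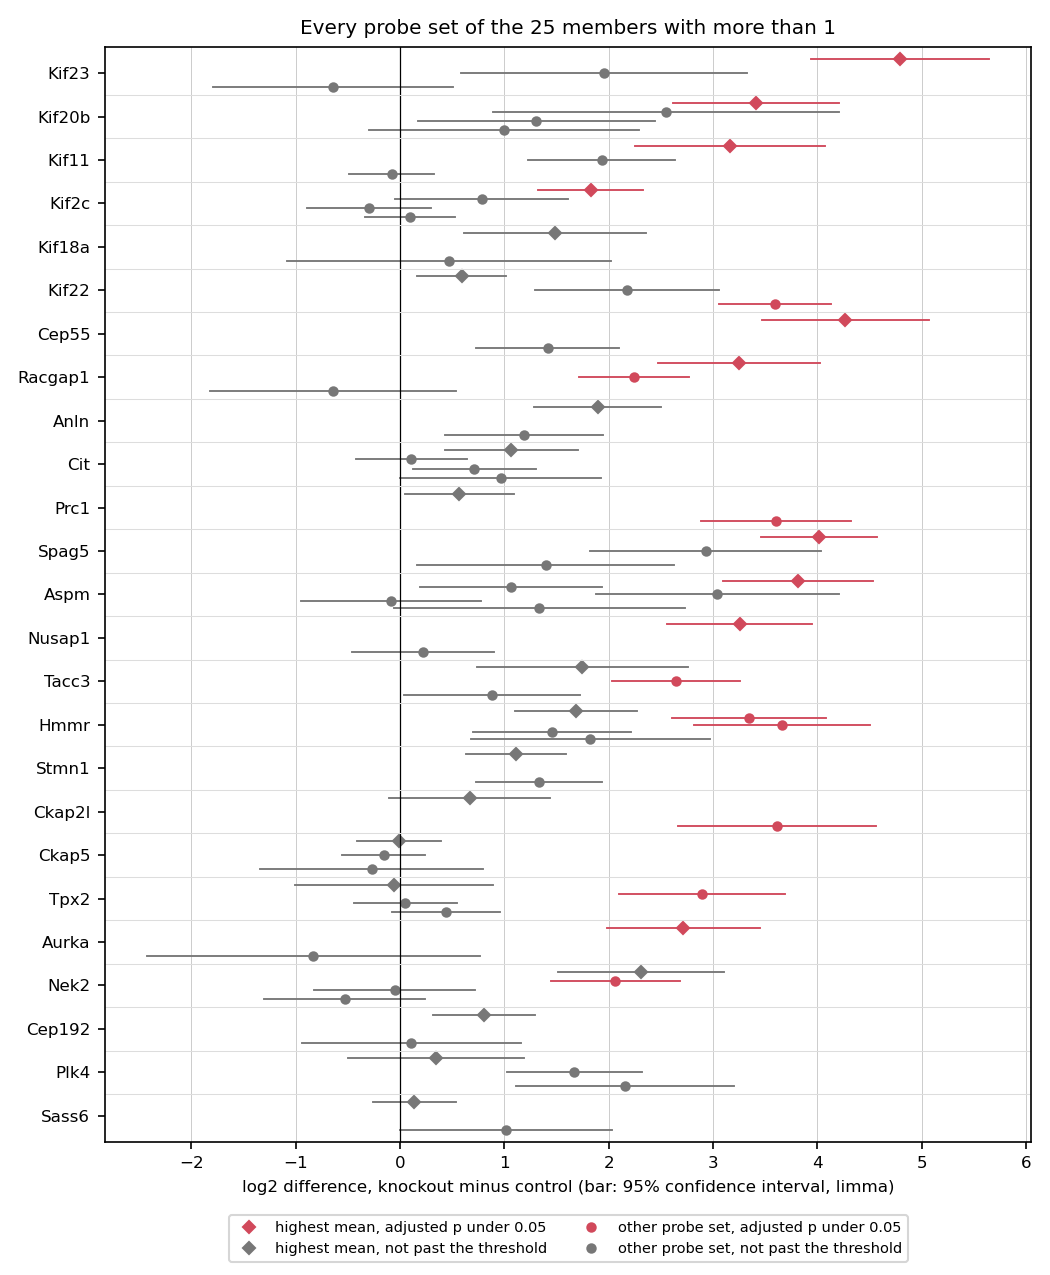
Difference between knockout and control (log2 scale) of every probe set of the 25 members that have more than 1, with 95% confidence intervals from limma, diamonds for the probe set with the highest mean and red for an adjusted p under 0.05. Red and grey symbols stand side by side in 17 genes, most widely apart in Kif23.

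**Figure D4:**
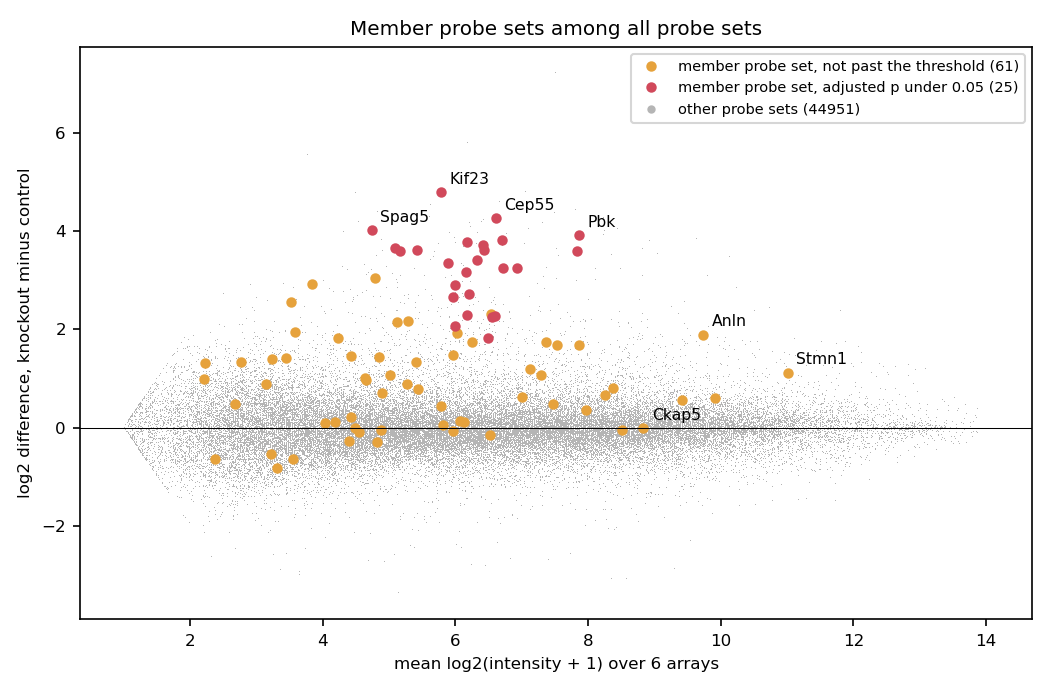
Difference between knockout and control (log2 scale) against the mean log2(intensity + 1) over 6 arrays for all 45037 probe sets, with the 86 member probe sets coloured. The 25 member probe sets past the threshold (red) all lie above 0, and the member probe sets with the highest means, such as Stmn1, are not among them.

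The 3 knockout arrays kept a steady order among themselves over these genes. The mean log2 value over the 37 members was 5.94, 5.98 and 5.96 in the controls and 7.85, 7.69 and 8.31 in the knockouts. Knockout 86 was the highest of the knockouts in 31 of 37 members (83.8%), against 32.8% of all genes, and knockout 73 the lowest in 26 of 37 (70.3%), against 34.6%. Among the 16 genes that rose, knockout 86 was highest and knockout 73 lowest in all 16. The other 75 genes that rose past the threshold showed a like order, with knockout 86 highest in 80% and knockout 73 lowest in 64%, so the members shared this order with other genes that rose. Knockout 86 is also the animal with F after its number, and the part of this in the order was not tested. Without knockout 86 the median member difference was 1.62.

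The other genes of the same machinery, taken from lists drawn up with earlier results of these data known, divided by kind. Of the 6 chromosomal passenger and midzone partners, 5 rose, against 0.5% of all genes, with a median of 3.04. They were Birc5 (survivin; 3.24, adjusted p 0.0147), Aurkb (aurora B; 2.84, adjusted p 0.019), Incenp (their scaffold; 1.91, adjusted p 0.0233), Cdca8 (borealin; 3.95, adjusted p 0.0241) and the kinetochore kinesin Cenpe (3.67, adjusted p 0.0418). Aurkc, an aurora kinase best known in germ cells, stood at -0.64. Without 1 array the count of 5 dropped to 0 (any control, or knockout 72), 2 (knockout 73) or 1 (knockout 86).

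Of 29 measured kinesins and light chains outside the members, which mostly haul cargo in resting cells, 0 passed in limma and 4 had an unadjusted p under 0.05, with a median of -0.02. Over all genes, 13.7% had an unadjusted p under 0.05, the share against which this and the following counts are to be read. The lowest p were those of Kifc2 (-1.08, adjusted p 0.254), Kif2b (0.76, adjusted p 0.288) and Kif5a (-0.76, adjusted p 0.298). Of 33 centrosome genes outside the members, 0 passed in limma and 3 had an unadjusted p under 0.05, with a median of 0.07. Cntrob, a daughter centriole protein, had the smallest p of these (0.60, adjusted p 0.231). Both lists thus lay near the median of all genes, although list members and the 37 genes were not tested against each other.

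Of 21 contractile ring and abscission genes, 0 passed in limma and 5 had an unadjusted p under 0.05, with a median of 0.07. Diaph3, a formin that builds actin filaments, had the largest difference at 1.80 (adjusted p 0.0889). Of 20 other spindle regulators, Dlgap5, which stabilises microtubules at kinetochores, rose by 2.96 (adjusted p 0.0148), the median was -0.04, and 6 had an unadjusted p under 0.05. Bora, an activator of aurora A and Plk1, stood at 1.07 (adjusted p 0.0907) and Kntc1, a kinetochore checkpoint protein, at 3.60 (adjusted p 0.11). Of 13 tubulin genes, 0 passed in limma and 4 had an unadjusted p under 0.05, with a median of 0.22. Tubb6 had the smallest p of these (1.74, adjusted p 0.136).

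The factors known to act on CCAAT and CHR elements were read as well. Of 15 genes for MuvB, B-Myb, FoxM1, DREAM and NF-Y subunits, 0 passed in limma and 5 had an unadjusted p under 0.05, with a median of 0.35. Rbl1 (p107), a pocket protein of DREAM, stood at 1.23 (adjusted p 0.0702), Mybl1, a relative of B-Myb, at 2.26 (adjusted p 0.084) and Rbl2 (p130), the pocket protein of resting cells, at -0.58 (adjusted p 0.234). Rbl1 and Mybl1 were the 2 of the 15 that were at least 2-fold higher, against 3.74% of all genes. Foxm1 and Mybl2 (B-Myb) thus fell short of 2-fold at their representative probe sets. Their differences and any other probe sets they have are not given here, so whether either was higher is not settled by this count.

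**Figure D5:**
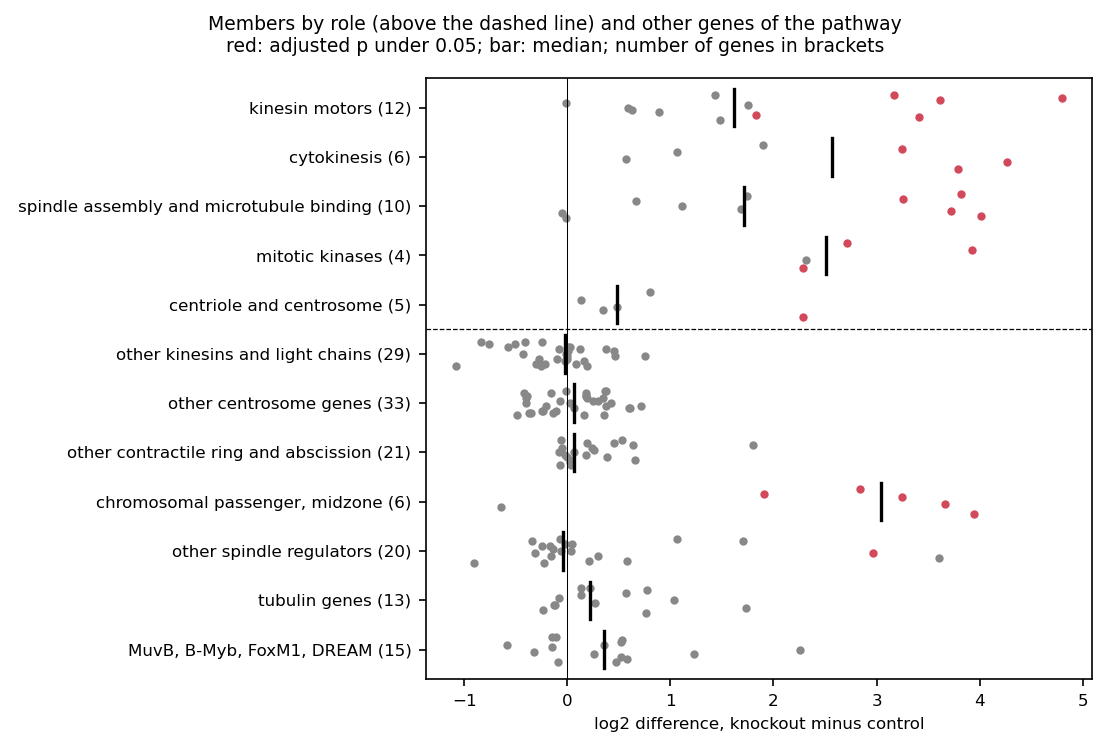
Difference between knockout and control (log2 scale) of each member by role (above the dashed line) and of the other genes of the pathway (below it), 1 point per gene at the probe set with the highest mean, with bars at medians and red for an adjusted p under 0.05. Red points lie in each member role and in the chromosomal passenger list, Dlgap5 is the only other one, and the remaining lists have medians between -0.04 and 0.35.

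Markers of the cells that an artery preparation holds were read beside the members. None of the 13 marker lists had a gene past the threshold (0 in limma). Smooth muscle markers were high in all arrays, with a summed intensity of 50502 to 65170 in controls and 44720 to 53143 in knockouts. Of the 8, 7 had a lower mean in knockouts, 3 of them with no overlap, where 12.7% of all genes were lower with no overlap. All 10 macrophage markers had a higher mean in knockouts, 7 of them with no overlap (10.4% of all genes were higher with no overlap), and their summed intensity was 3074 to 5473 in controls and 7836 to 26976 in knockouts. The mean log2 value of the macrophage list was 9.10, 10.48 and 8.70 in knockouts 72, 73 and 86. Knockout 73, the highest of the 3 on this list, was the lowest on the mean of the 37 members, and knockout 86, the lowest here, was the highest there.

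The 8 endothelial markers all had a lower mean in knockouts, 4 with no overlap, against the same 12.7% (summed intensity 24391 to 27394 in controls and 17449 to 23496 in knockouts), and so were the 4 Schwann cell markers measured, all with no overlap (10217 to 13177 and 5341 to 8726). Summed intensities of fibroblast markers were 19685 to 28240 and 26276 to 30754, of T and NK cell markers 189 to 227 and 208 to 295, and of B and plasma cell markers 285 to 642 and 235 to 5487. The mean log2 value of the B and plasma cell list was 7.76 in knockout 73, 5.64 and 5.02 in knockouts 72 and 86, and 5.30 to 5.96 in controls. Adipocyte markers summed to 3537 to 21185 in controls and 5005 to 10867 in knockouts, and Adipoq read 11.31 to 13.53 across the arrays, so adipocyte transcripts were present in all 6. All 4 erythroid markers lay below the array median on every array. Each had a lower mean in knockouts with overlapping groups. The mean log2 value of the erythroid list was 4.88 to 5.23 in controls and 4.49 to 4.81 in knockouts, without overlap. The remaining lists (mast cell, neutrophil, adipocyte, lymphatic endothelium and mesothelium) overlapped between the groups in their mean log2 values. The part of any of these cells in the member differences was not tested.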

How the data were processed

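The authors deposited 1 intensity per probe set, on a linear scale, for 45037 probe sets on each of 6 arrays. How they summarised probes and scaled the arrays is not given in the sources at hand here. Intensities were taken to log2(intensity + 1), quantile normalized and compared with limma 3.58.1 (R 4.3.3; lmFit and eBayes, 2-sided, no filter), with Benjamini-Hochberg adjustment over all probe sets. The procedure was also run on 6 simulated arrays with independent normal errors drawn from limma's own fitted variance model. Since that model holds there by construction, the run checks the code and not the calls in these animals. Probe sets were named from the platform annotation of 2016: 34945 had 1 symbol, 932 several and 9160 none, and the last 2 kinds stand for no gene. Of 231 listed genes outside the members, 218 were matched.

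The members and lists were chosen with earlier results of these data known. By rule, values of every array are given for the 2 members with the largest and the 1 with the smallest difference in each role and for members with probe sets on both sides of the threshold, and up to 3 genes per pathway list are named by smallest p; Cdca8, Cenpe and Aurkc were added after their values were seen. No count over the members is a test of the list. Precision is limited by the number of arrays (3 a group), and p-values measure the spread between these animals only.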

Additional observations from a re-analysis of the deposited data

How the results depend on the processing

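The 16 member genes past the threshold were the same 16 with median centring, without normalization and with a required 2-fold difference. The shares of all genes past the threshold were 0.511% with median centring and 0.55% without normalization. The count was 22 with a pseudocount of 16 (1.23% of all genes), 21 with a trended robust prior (1.48%) and 19 with array weights (0.764%), all including the 16. A filter at the median of the means left 29 members and removed Kif20a, Kif23 and Spag5. Since it uses all 6 arrays, members with low control readings entered through their knockout values, and its count of 18 (1.67% of the genes it left) supports nothing. The count was 14 by the probe set with the highest control mean (0.456%) and 0 at an adjusted p under 0.01, which 1 of all probe sets passed. Leaving out each array gave 0 to 9 genes (0% to 0.159% of all genes) and 0 to 11 of the 25 member probe sets. With the trended robust prior, chosen after seeing the data, it gave 16 to 23 genes (0.434% to 1.59% of all genes) and 24 to 38 probe sets. The share of all probe sets past the threshold in these omissions is not given here, so the probe set counts have no background beside them. No paired analysis was possible because the groups share no animal numbers. The Itgb1 difference kept its direction and side throughout.

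In the pathway lists, chromosomal passenger calls (5) ranged from 0 to 2 with 1 array left out. Spindle regulators (1) had 2 calls with the filter or the trended robust prior and 3 with a pseudocount of 16, and 0 to 1 with 1 array left out (1 to 2 under the trended robust prior). Contractile ring genes (0) had 1 with the filter, the pseudocount or the trended robust prior, and 0 to 1 with that prior and 1 array left out. Tubulins (0) had 3 with the trended robust prior, and 0 to 3 with 1 array left out. MuvB and related factors (0) had 1 with the filter, array weights or the mean of probe sets, 2 with the pseudocount or the trended robust prior, and 0 to 2 with 1 array left out.

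The 3 members with differences near 0 changed sign. Kif15 stood at 0.067 without normalization, 0.075 with a pseudocount of 16, 0.21 with array weights 0.41 without control 30 and -0.62 to 0.80 with each array left out. Tpx2 stood at 0.006 without normalization, 0.84 as a mean of probe sets 0.195 without knockout 72 and -0.30 to 0.29 with each array left out, the highest without control 30. Ckap5 stood at 0.05 without normalization, 0.001 with array weights 0.018, 0.056 and 0.038 without control 30, control 74 or knockout 72, and -0.10 to 0.06 with each array left out. These values do not depend on the variance prior. The cause of each was not tested.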
